A study of Arabidopsis thaliana with 6 samples.

Results

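The BTB and TAZ domain genes of Arabidopsis thaliana, BT1 to BT5, were followed in leaves grown at a low and at a normal CO2 level. The 5 members were taken by locus from the deposited table of 26402 genes, and all 5 were listed there. All 5 passed the filter on low values, BT2 only through its value at low CO2. The family was selected on the RPKM values of its members at low and normal CO2, so the values below are a description and carry no test. The samples were whole leaves of wild type Col-0, an accession with C3 photosynthesis. The 6 samples formed 2 groups of 3, from plants grown at 380 ppm CO2 (normal CO2) or at 100 ppm CO2 (low CO2). Both groups were 4 weeks old and had shared days of 16 h light and 8 h dark, 21 °C and 70% relative humidity. The hour of harvest was not given in the sources used here.

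BT proteins join a BTB domain, which binds the scaffold CUL3 of a ubiquitin ligase, to a TAZ zinc finger and a calmodulin-binding region, a combination known from land plants. BT2 is the best studied of them. Its transcript is known to be low when sugar is ample, to respond to nitrogen supply and to vary over the day. BT1 and BT2 are known to hold down genes of high-affinity nitrate uptake in roots. BT1 also binds the auxin-related kinase PINOID, and BT1, BT2 and BT3 act redundantly in the female gametophyte.

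The deposited table gave 1 column of RPKM per CO2 level, a read number divided by gene model length and by sequencing depth. None was labelled as a single replicate, and whether a column pooled 3 samples or held 1 was not given. Differences between the columns could therefore not be set against the spread between samples, and the effect of CO2 was not tested. Read numbers were recovered from the values, with depths of 25429325 (normal CO2) and 21887516 (low CO2) reads, so 1 read on 1 kb of coding length was worth 0.0393 and 0.0457 RPKM. Intervals are exact 95% intervals on these reads and cover counting error alone. A gene was counted when its mean was at least 1 RPKM, and it was called 2-fold higher or lower on the log2((low + 1)/(normal + 1)) scale of RPKM values. A gene near 0 in 1 column could thus be counted through the other column alone. In bulk leaf RNA, fewer cells of a type and less RNA per cell cannot be told apart. The labelled tissue held leaf markers. RBCS1A, LHCB1.3 and CA1, which mark mesophyll, summed to 17440 RPKM (normal CO2) and 41518 RPKM (low CO2), with all 3 past the 2-fold rule upward (RBCS1A and LHCB1.3 inside it after quantile normalization, at 0.85 and 0.66 on the log2 scale), and their part in the results below was not tested. The 4 guard cell markers summed to 82.8 and 116 RPKM and the 2 phloem markers to 470 and 406 RPKM. All 5 root markers were listed at 0 in both columns, and the 4 flower markers summed to 2.16 and 0.984 RPKM.

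BT1, BT2 and BT5 were higher in the low CO2 column by 6-fold or more, BT4 was about 2-fold higher, and BT3 differed by less than its counting error. On the log2 scale with 1 RPKM added, 3 of the 5 members were at least 2-fold higher and none was lower. Of 16563 counted genes 6.07% passed the 2-fold rule upward and 11.1% downward, and their median log2 ratio was -0.06 against 2.402 for the 5 members, numbers that the choice of members fixes in part.

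BT1 (AT5G63160), the PINOID-binding member, stood at 28.3 RPKM at normal CO2 (interval 26.3 to 30.3, 787 reads) and at 249 RPKM at low CO2 (243 to 255, 5969 reads). It was 8.81-fold higher at low CO2, with an interval of 8.18 to 9.50, and had the 73rd largest log2 ratio upward of the counted genes. BT1 went from a level with 6522 of the listed genes above it to one with 673 above it.

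BT2 (AT3G48360), the sugar- and nitrogen-responsive member, stood at 0.468 RPKM at normal CO2 (0.249 to 0.801) and at 135 RPKM at low CO2 (130.2 to 139.5). Only 13 reads lay behind the lower value against 3222 behind the higher, so the ratio of 288 had a wide interval, 168 to 541. At normal CO2 the level of BT2 was exceeded by 17563 genes, and at low CO2 by 1377. Its log2 ratio of 6.53 was the second largest upward. That value depends on the 1 RPKM added, and was 4.68 with 5 RPKM added and 7.89 with 0.1 added.

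BT3 (AT1G05690), which shares the gametophyte role, stood at 9.54 RPKM at normal CO2 (8.43 to 10.8, 265 reads) and at 8.87 RPKM at low CO2 (7.72 to 10.1, 212 reads). The ratio was 0.929 (0.772 to 1.12), so at this depth no difference was detectable, and a difference of 2-fold either way lay outside the interval. Its log2 ratio of -0.10 stood near the middle of the counted genes, with 46.8% of them below it, and was 0.02 after quantile normalization.

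BT4 (AT5G67480), a member tied to defence against pathogens, stood at 60.9 RPKM at normal CO2 (58.1 to 63.7, 1778 reads) and at 120 RPKM at low CO2 (116 to 124, 3013 reads). Its ratio of 1.97 (1.86 to 2.09) straddled the 2-fold rule. The log2 ratio was 0.97, just inside 2-fold, and came to 1.03 after median scaling and 1.06 after quantile normalization, which made 4 members called higher. BT4 overlaps FH6 (AT5G67470), a formin gene, by 18 bases on the opposite strand in the reference. Reads of this short overlap cannot be told apart without strand. FH6 stood at 18.2 and 26.4 RPKM.

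BT5 (AT4G37610) stood at 5.49 RPKM at normal CO2 (4.65 to 6.42, 154 reads) and at 33.3 RPKM at low CO2 (31.0 to 35.7, 804 reads). It was 6.07-fold higher at low CO2 (5.10 to 7.25), the 161st largest log2 ratio upward. BT5 overlaps AT4G37608 by 151 bases on the opposite strand in the reference. That locus stood at 8.89 and 9.98 RPKM, a ratio of 1.12 (0.766 to 1.64), below the ratio of BT5.

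**Figure D1:**
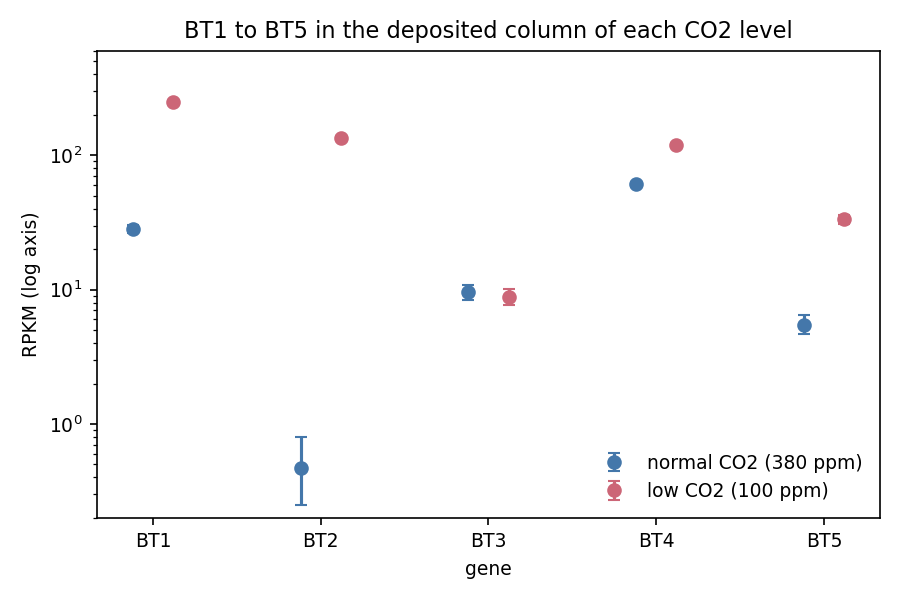
RPKM (log axis) of BT1 to BT5 in the normal CO2 column (blue) and the low CO2 column (red), 1 deposited value each, with bars for the exact 95% counting interval, hidden by the point where narrow. BT2 goes from 0.468 to 135 RPKM, BT1 and BT5 are also far apart between columns, and the bars of BT3 overlap.

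The order of the members by level was different in each column. At normal CO2 it ran BT4, BT1, BT3, BT5 and BT2. Each step down was larger than its counting error, from the 1.74-fold step of BT3 over BT5 (1.42 to 2.14) to the 11.7-fold step of BT5 over BT2 (6.65 to 22.5). At low CO2 the order was BT1, BT2, BT4, BT5 and BT3. There the closest neighbours were BT2 and BT4, with BT2 1.13-fold above BT4 (1.07 to 1.18), and BT1 lay 1.85-fold above BT2 (1.77 to 1.93). BT3 stood in the middle at normal CO2 and last at low CO2, although its own level was within counting error in both. Whether these orders exceed the spread between plants cannot be read from 1 column per CO2 level.

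Summed over the 5 members, the level in the normal CO2 column was 105 RPKM and that in the low CO2 column 546 RPKM, a ratio of 5.22. BT4 made up 58.2% of the sum at normal CO2 and 21.95% at low CO2. BT1 went from 27.0% to 45.6% and BT2 from 0.448% to 24.7%. BT3 went from 9.12% to 1.63%, while BT5 was at 5.24% and 6.10%. Of the difference between the sums BT1 supplied 50.04%, BT2 30.4%, BT4 13.4% and BT5 6.30%. The gene with the largest ratio, BT2, thus gave less of the added transcript level than BT1, which had started from a higher level. Without BT2 the sums were 104 and 411 RPKM, 3.95-fold higher at low CO2.

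**Figure D2:**
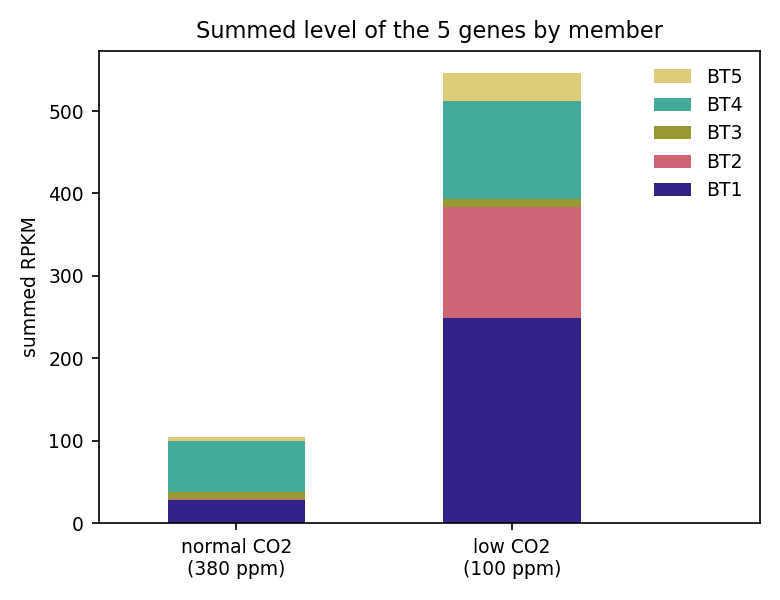
Summed RPKM of the 5 genes in each deposited column, stacked by gene. Most of the 105 RPKM at normal CO2 is BT4, and most of the 546 RPKM at low CO2 is BT1, BT2 and BT4.

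The coding sequences of the members, read from the RefSeq annotation of TAIR10.1, were alike in length and apart in sequence. Without the stop codon they were 364 codons long in BT2 and BT3, 365 in BT1, 368 in BT5 and 383 in BT4. BT1 and BT2 were the closest pair, with 76.8% of 1056 aligned bases identical, followed by BT4 and BT5 with 68.0% of 1091. The other pairs had 58.8% to 65.0%, and BT3 had its closest partner in BT4 at 63.9%. By this measure the closest pair, BT1 and BT2, held the 2 largest ratios, 8.81 and 288, and the next pair held BT4 at 1.97 and BT5 at 6.07. The family was selected on these values, and a link between sequence and ratio was not tested. The longest run of identical bases shared by any pair was 21 bases, and no run of 30 bases was shared with the coding sequence of another locus on either strand.

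Promoters were searched for short elements in a window of 300 bases, from 250 before the annotated start of the gene to 50 after it, on both strands. The window of BT2 held 1 TATCCA and 1 TTATCC, elements described in sugar-responsive promoters, and both were parts of the single run TTATCCA. The window of BT5 held 3 TATCCA and 1 TTATCC, with 1 TTATCCA among them, and that of BT4 held 2 TTATCC. Of 27561 windows of the same kind 16.1% held TATCCA, 14.8% TTATCC and 6.54% TTATCCA. BT1 had 1 G-box, CACGTG, which 7.65% of windows held, and neither of the sugar elements. None of the 5 windows held the evening element AAAATATCT or the telo-box AAACCCTA, which 2.81% and 6.20% of all windows held. BT3 had no match to any of them, but each element was missing from most windows, and the share of windows without any was not computed. A link between matches and ratios was not tested. A match is a run of letters in this window and not a tested site.

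Of the 10 nearest listed genes on both sides of the members, 8 were counted and 1 of these passed the 2-fold rule upward. This was UGT74E2 (AT1G05680), a glucosyltransferase gene beside BT3, which stood at 0.723 and 4.74 RPKM and was 6.55-fold higher (4.26 to 10.5), but with 5 RPKM added its log2 ratio was 0.77. The other 7 counted neighbours had log2 ratios between 0.02 and 0.57. CEP3, a cysteine endopeptidase gene beside BT2, had 1.22 and 1.97 RPKM and a ratio of 1.61 (1.01 to 2.57), and AT3G48380 on the other side of BT2 had a ratio of 1.51 (1.39 to 1.65). The neighbours of BT1 were AT5G63150, at 38.7 and 43.0 RPKM, and AT5G63170, listed at 0 at normal CO2 and with 1 read at low CO2. AT1G05700, on the other side of BT3, was listed at 0 at low CO2 and had 3 reads at normal CO2. AT5G67490 beside BT4 was at 1.09 and 1.13 RPKM and CYCD5;1, a cyclin gene beside BT5, at 5.84 and 7.59 RPKM.

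**Figure D3:**
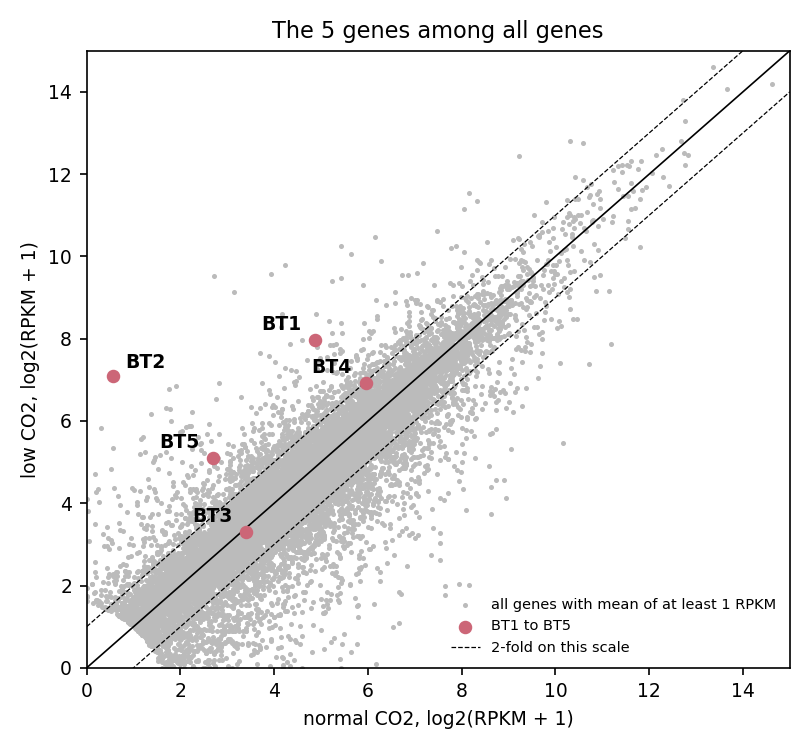
Level at low CO2 against level at normal CO2, both as log2(RPKM + 1), for the 16563 counted genes (grey) and BT1 to BT5 (red), with lines of equality and of 2-fold difference. BT2 lies at the upper left edge of the cloud, BT1 and BT5 above the upper line, BT4 on it and BT3 on the line of equality.

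Genes with levels most like those of the 3 called members were found by the distance between their log2(RPKM + 1) values over the 2 columns. For BT1 they were AT4G34950 (29.3 and 220 RPKM, distance 0.18), XTH4 (23.2 and 249 RPKM, 0.27) and TCH4 (35.7 and 230 RPKM, 0.35), the latter pair being genes of xyloglucan endotransglucosylases. For BT5 they were AT3G18773 (6.02 and 33.3 RPKM, 0.11), the B-box gene BZS1 (5.58 and 29.8 RPKM, 0.15) and the oligopeptide transporter gene OPT6 (5.56 and 29.2 RPKM, 0.19). BT2 had no neighbour that close. The nearest were COL9 (1.59 and 71.4 RPKM, 1.22), RVE2 (2.38 and 108 RPKM, 1.24) and AT4G33980 (0.241 and 55.5 RPKM, 1.29), the last with 4 reads at normal CO2.

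Genes whose products work with BT proteins or with the BT1-binding kinase PINOID went both ways. Of 5 counted genes in this interactor list, none was at least 2-fold higher and 1, a partner of PINOID, was lower. Their median log2 ratio was -0.18, against shares of 6.07% and 11.1% and a median of -0.06 over all counted genes. With so few genes these counts are near the general shares. PBP1, a calcium-binding partner of PINOID, had 25.4 and 8.27 RPKM and a ratio of 0.326 (0.246 to 0.427). The bromodomain genes GTE9 and GTE11, whose proteins bind BT proteins, were higher at low CO2 beyond counting error, with ratios of 1.497 (1.38 to 1.62) and 1.33 (1.25 to 1.43), while PID had one of 0.846 (0.630 to 1.13), and TCH3, a calmodulin-like gene, one of 0.622 (0.612 to 0.632). These 4 were named after their values were seen. TERT, the telomerase gene in whose activation BT2 takes part, was listed at 0 at normal CO2 and had 2 reads at low CO2. TAC1, the regulator upstream of it, was listed at 0 in both columns.

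In the core of the CUL3 ligase all 6 counted genes lay within 2-fold, with a median log2 ratio of -0.14. RUB2, a modifier that activates cullins, stood at 213 and 253 RPKM and RBX1A, the RING subunit, at 136 and 139 RPKM. The scaffold genes CUL3A (41.0 and 31.5 RPKM) and CUL3B (9.65 and 7.53 RPKM), picked out once their values were known, had ratios of 0.769 (0.720 to 0.821) and 0.780 (0.681 to 0.893). The seventh gene, RBX1B, was listed at 0 in both columns.

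Of 19 counted genes for other BTB adaptors, none was at least 2-fold higher, 1 was lower and 18 were within, with a median log2 ratio of 0.00. These counts, too, are near the 6.07% higher and 11.1% lower of all counted genes. The lower gene was NPR2, of the NPR family of salicylic acid receptors and their relatives, at 12.2 and 2.21 RPKM and a ratio of 0.180 (0.142 to 0.227). NPR1 and NPR3 were within 2-fold but lower beyond counting error, at ratios of 0.610 (0.568 to 0.655) and 0.519 (0.483 to 0.559). NPR4 had a ratio of 0.998 (0.890 to 1.12). NPR1, NPR3 and NPR4 were named after their values were seen. The 3 counted histone acetyltransferase genes with TAZ domains were all within 2-fold, with HAC1 at 24.3 and 25.02 RPKM and HAC12 at 17.2 and 14.7 RPKM. Of 7 calmodulin genes, whose products bind BT proteins, 1 was at least 2-fold lower and 6 within, with a median of -0.36. With so few genes this count is near the 11.1% lower of all counted genes. CAM3 had 1223 and 562 RPKM and a ratio of 0.459 (0.445 to 0.474). Calmodulin genes have similar copies whose reads counting can split, so their single values are uncertain.

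Among genes of nitrate transport and signalling, the pathway in which BT1 and BT2 are known to act, 6 of 15 counted were at least 2-fold higher, none lower and 9 within. Their median log2 ratio was 0.91 against -0.06 over all counted genes, of which 6.07% were higher and 11.1% lower. The number higher was 5 with 5 RPKM added and 9 after quantile normalization. The 3 LBD genes, repressors that respond to nitrogen supply, were all higher. LBD38 was at 1.38 and 37.2 RPKM, 27.0-fold higher (18.2 to 41.7). LBD39 stood at 0.437 RPKM in normal CO2, from 8 reads, and at 7.55 RPKM in low CO2, so its ratio of 17.3 had a wide interval (8.49 to 41.0). It was counted only through its low CO2 value. LBD37, the most abundant of them, stood at 34.2 RPKM in normal and 150 RPKM in low CO2, a ratio of 4.38 (4.01 to 4.78). HHO3, of a family of repressors of nitrate uptake genes, was at 17.0 and 77.8 RPKM, 4.57-fold higher (4.12 to 5.08). The other two, named after their values were seen, were the nitrate transporter and sensor gene NRT1.1 (129 and 471 RPKM) and HHO2 (14.7 and 31.4 RPKM), which lay inside 2-fold with 5 RPKM added (0.88).

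NRT2.1 and NRT2.4, nitrate uptake genes that BT1 and BT2 are known to hold down in roots, were low or listed at 0 in these leaves. NRT2.4 was listed at 0 in both columns. NRT2.1 had 31 reads (normal CO2) and 75 reads (low CO2), that is 0.767 and 2.16 RPKM, with a ratio of 2.81 (1.83 to 4.42) and a log2 ratio of 0.84, inside 2-fold, that came to 1.38 with 0.1 RPKM added and 1.01 after quantile normalization. Of their relatives NRT2.2 was also listed at 0 in both columns, whereas NRT2.5 had 10.8 and 7.83 RPKM, a level near that of BT3. These 4 were named after their values were seen.

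In the sugar starvation set, which was drawn up without BT2, 5 of 13 counted genes were at least 2-fold higher, 1 was lower and 7 were within. Their median was 0.75. Of all counted genes 6.07% were higher and 11.1% lower, with a median of -0.06. DIN10, of the raffinose synthase family, had the largest log2 ratio, 6.81 against 6.53 for BT2. The dormancy-associated genes DRM2 and DYL1 were 12.4-fold (11.4 to 13.5) and 6.96-fold higher (6.42 to 7.56), at 947 and 494 RPKM at low CO2. SEN1, at a ratio of 6.03 (5.43 to 6.70), lay beside BT5 in the size of its difference. The lower gene, EXL2, was at 253 and 68.0 RPKM and a ratio of 0.268 (0.253 to 0.285). The fifth higher gene, ASN1 (0.471 and 3.86 RPKM), was counted only through its low CO2 value. It lay inside 2-fold with 5 RPKM added (0.70), and it and EXL2 were named after their values were seen. So was DIN2, a dark-inducible gene that the filter on low values left out, with 67 reads at normal CO2 and 2 reads at low CO2, a ratio of 0.0347 (0.00412 to 0.130). The 7 genes within 2-fold had ratios from 0.812 (DIN9) to 1.94 (TPS10). Between them lay BCAT2 (1.02), MCCB (1.15), IVD (1.27), MCCA (1.34) and TPS8 (1.69). TPS10 came to 1.03 on the log2 scale after quantile normalization. All 7 were named after their values were seen. The members of this set, like those of every other list here, were chosen with results of these data known.

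Genes that mark the time of day differed as well. Of 10 counted, 4 were at least 2-fold higher, 1 was lower and 5 were within, with a median of 0.42. The shares over all counted genes were 6.07% higher and 11.1% lower, with a median of -0.06. The 4 higher genes were PRR5 (1.297 and 48.0 RPKM), ELF4 (5.08 and 60.0 RPKM, 11.8-fold, 8.62 to 16.6), LUX (1.79 and 16.5 RPKM, 9.24-fold, 6.74 to 13.0) and TOC1 (12.8 and 50.4 RPKM), the last named after its values were seen. They are clock genes of later parts of the day, but GI, another late-day gene of the list, had 7.51 and 4.36 RPKM and a ratio of 0.581 (0.508 to 0.663). PRR9, which peaks earlier, had 6.58 and 0.781 RPKM and a ratio of 0.119 (0.0745 to 0.181). The summed level of the list was 566 RPKM at normal and 744 RPKM at low CO2. CCA1 (152 and 216 RPKM) and LHY (199 and 175 RPKM), the morning genes of the list, were within 2-fold, and they and GI were named after their values were seen. Since the BT2 transcript is known to vary over the day, these values are given beside those of the BT genes. Their part in the differences of BT1, BT2, BT4 and BT5 was not tested.

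**Figure D4:**
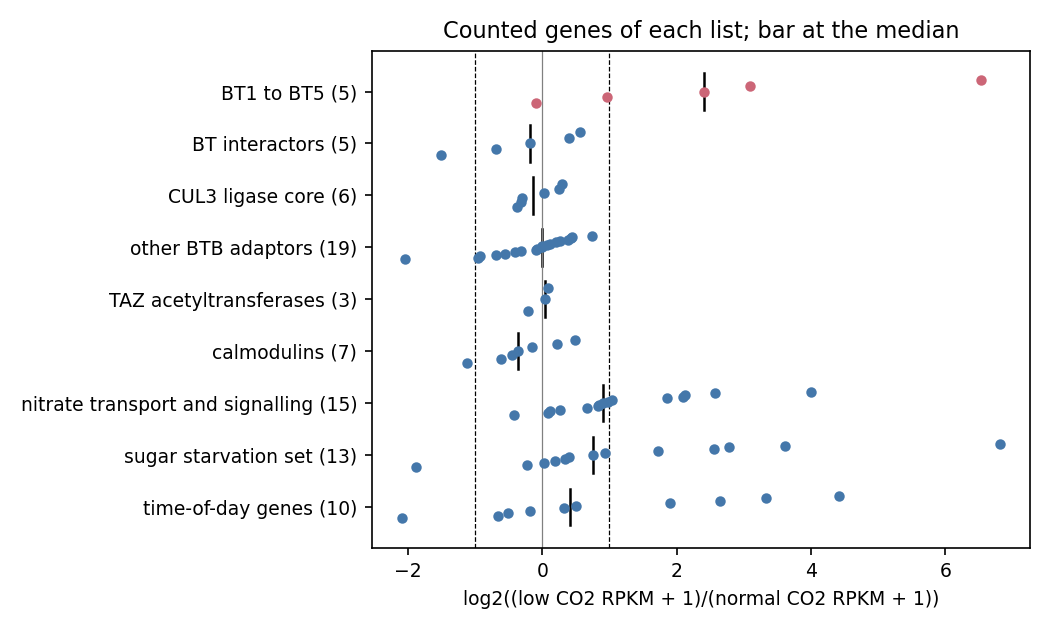
Log2 ratio of RPKM + 1, low over normal CO2, for BT1 to BT5 (red) and the counted genes of 8 lists (blue, number of genes in brackets), 1 point per gene, with a bar at each median and dashed lines at 2-fold. The medians of the interactor, ligase, adaptor, acetyltransferase and calmodulin lists lie between -0.36 and 0.04, and those of the nitrate, sugar starvation and time-of-day lists at 0.91, 0.75 and 0.42.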

How the data were processed

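RNA sequencing was done on 6 whole leaf samples, 3 per CO2 level, with libraries made by the Illumina TruSeq RNA kit, per the labels' protocols. FastQC, TopHat and Cufflinks are named in the submitters' processing notes. Genome build, annotation, strand use and any pooling of replicates are not given in the sources used here. RPKM values were deposited by the authors in 1 column per CO2 level. Each column was taken as the authors' group value, without an SD or n, although it may hold 1 library.

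Reads were recovered by searching for the depth at which RPKM times coding length, less the 3 bases of the stop codon, gave whole numbers. This held for 20247 of 21010 genes above 0 (96.4%) within 0.0001 reads, and for 0.798% of values at normal CO2 with the stop codon kept. Genes without recovered reads (PRR5, CYCD5;1) have no interval. Names, coding lengths, neighbours and promoter windows came from the RefSeq annotation of TAIR10.1, which matched 25802 of 26402 loci. No coordinates or sequences of it are printed because the authors' build is not stated.

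Ratios carry exact Clopper-Pearson intervals and levels exact Poisson intervals, at 95%. A log2 ratio adds 1 RPKM to both values. The planned limma test could not be run on 1 column per group. Tested on reads simulated for the low over normal CO2 comparison, the recovery gave back the reads of 100% of 20247 genes. That is the number of genes that had already given whole reads, so the share says little about the others. In the simulation 93% of intervals held the known fold for 200 changed genes, below the stated 95%. This concerns counting error alone. Alternatives were 0.1 or 5 RPKM added, median scaling, quantile normalization, no filter on low values and a mean of at least 5 RPKM.

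The 5 members and the 9 lists (93 entries by locus, 89 of them listed and the other 4 not analysed here) were chosen with earlier results of these data known. The genes named were the members, up to 4 genes of each list past 2-fold or the 2 most abundant where none passed, the 3 genes nearest in level to each called member, and the nearest gene on each side of each member. Others are said to have been named after their values were seen. Python 3.11.15, SciPy 1.17.1 and Biopython 1.88 were used.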

Additional observations from a re-analysis of the deposited data

How the results depend on the processing

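With 5 RPKM added in place of 1, the log2 ratio was 2.93 for BT1, 4.68 for BT2 and 1.87 for BT5, and the number of genes at least 2-fold lower in the whole table was 1175 in place of 1834, since a larger added value shrinks the ratios of low genes. With 0.1 RPKM added BT2 came to 7.89. After quantile normalization BT4 came to 1.06 and BT3 to 0.02, a change of sign within its counting error, and the median of all counted genes moved from -0.06 to 0.05. The number of members at least 2-fold higher was 3 with every added value and filter tried and 4 under median scaling and quantile normalization, with BT4 the member that crossed. BT1, BT2 and BT5 stayed at least 2-fold higher under all of these. Of the 108 list counts under alternatives 106 stayed within 1.5 times the reported count. Most of these were counts of 0 that stayed 0, among them those of TERT and TAC1, which the filter on low values left out. The other 2 counts were of lower calls. They came to 2 in the sugar starvation set without a filter (EXL2 and DIN2) and to 0 among the time-of-day genes at a mean of at least 5 RPKM. Single genes still changed call, with HHO2 and ASN1 losing theirs at 5 RPKM added and NRT2.1 gaining one at 0.1 RPKM added. Leaving out replicates was not run because the table has no columns labelled as single replicates. No paired analysis was possible because the columns carry no replicate numbers. Depth limits BT2 most, with 13 reads at normal CO2.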
